A study of Mus musculus with 9 samples.

Results

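Collagen chain genes were followed in orofacial tissue of mouse embryos, from which the face and palate develop, over gestation days (GD) 12, 13 and 14. They were taken by name: array probe sets with exactly 1 annotated symbol of the form Col, number, a, number, leaving out Col17a1. Each gene was represented by its probe set with the highest mean over the 9 arrays. This gave 30 genes, measured by 43 probe sets, out of 8251 genes with a single-symbol probe set and 12488 probe sets in all. Total RNA of each day was hybridized to 3 one-colour arrays, numbered 1 to 3 in the titles, and the study compared the days. All groups were untreated tissue as far as the labels go, and strain, genotype and pooling were not given in the sources used here. The labels do not say that the arrays of a day came from separate litters, so every p-value measures only the spread between these samples.

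Collagens are matrix proteins built from chains that wind into a triple helix, and most types need particular partner chains. Fibrillar types (I, III and V here) form the cables of skin, bone and connective tissue. Cartilage types include type II, its fibril partners types IX and XI, and type X of maturing growth cartilage. Network types such as IV form the sheets of basement membranes under epithelia and around vessels, and type VI forms beaded filaments around cells. In the embryonic face these days span growth of the palatal shelves and the first cartilage and bone.

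Values are the authors' scaled intensities, the brightness of a probe set on a linear scale. Intensities of different probe sets are not comparable, so each gene is compared only with itself across days. Sums over a list of markers, also given below, mostly follow the brightest probe sets of the list. Changes are differences of log2(intensity + 3), tested with limma on all 9326 probe sets whose mean exceeded an intensity of about 10.4, with Benjamini-Hochberg adjustment and a threshold of 0.05. Of the 30 collagen genes, 26 passed that filter. The others were Col2a1 (2.5 to 12.6 over the 9 arrays), Col4a3 (1.1 to 5.8), Col4a4 (2.0 to 5.2) and Col22a1 (1.1 to 4.7). Col2a1, the chain of the main cartilage collagen, exceeded 10.4 on 1 array, the third of GD12. It was measured by 1 probe set, so little RNA and a weakly responding probe set cannot be told apart.

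Array medians lay between 47.15 and 56.95. The third array of each day stood apart in control probe sets that compare the ends of a transcript: its actin ratio of 3-prime to 5-prime signal was 1.25 to 1.42, against 1.54 to 2.44 on the other arrays, and its Gapdh ratio was 0.802 to 0.851 against 1.09 to 1.29. On arrays 1 and 2 the actin ratio also moved with the day, from 1.54 and 1.76 on GD12 to 2.09 and 2.23 on GD13 and 2.44 and 2.29 on GD14, in the same order as the collagen increases described here. On the third arrays it did not follow that order, at 1.42 on GD12, 1.25 on GD13 and 1.37 on GD14. Among the 26 collagen genes the third array was the lowest of its day for 16 on GD12, 3 on GD13 and 15 on GD14, and the highest for 4, 15 and 6. Counts are therefore also given without these arrays. All 9 measured markers of facial mesenchyme were bright enough to test, and their summed intensity was 4755 to 4937 on GD12, 3987 to 4204 on GD13 and 3804 to 4203 on GD14.

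Between GD12 and GD14, 8 of the 26 tested collagen genes rose and 0 fell. For comparison, 3.24% of all tested probe sets rose and 1.06% fell, 4.3% together. The genes that rose coded for chains of type I (Col1a1 and Col1a2), type V (Col5a2), type XI (Col11a1 and Col11a2) and type VI (Col6a1, Col6a2 and Col6a3). By class, 3 of 5 fibrillar, 2 of 6 cartilage, 3 of 3 beaded-filament, 0 of 4 network and 0 of 8 other genes rose. The median log2 change was 1.05 for fibrillar, 1.38 for beaded-filament, 0.27 for cartilage, 0.15 for network and 0.33 for other collagens, against -0.02 for all tested probe sets. The 3 values of GD14 all lay above those of GD12 for 14 of the 26 genes and all below for 2, whereas 12.1% and 10.3% of all probe sets separated in these ways. Without the third arrays 7 of the 8 still passed, with limma adjusted p between 0.0135 and 0.0416, and Col6a1 did not (0.0730). The arrays kept there are those whose actin ratio moved with the day, so that count cannot separate the day from the ratio. With the log2 actin ratio as a covariate the 8 genes all passed, and so did Col8a1. In tissue RNA, more cells of a type and more RNA per cell cannot be told apart.

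**Figure D1:**
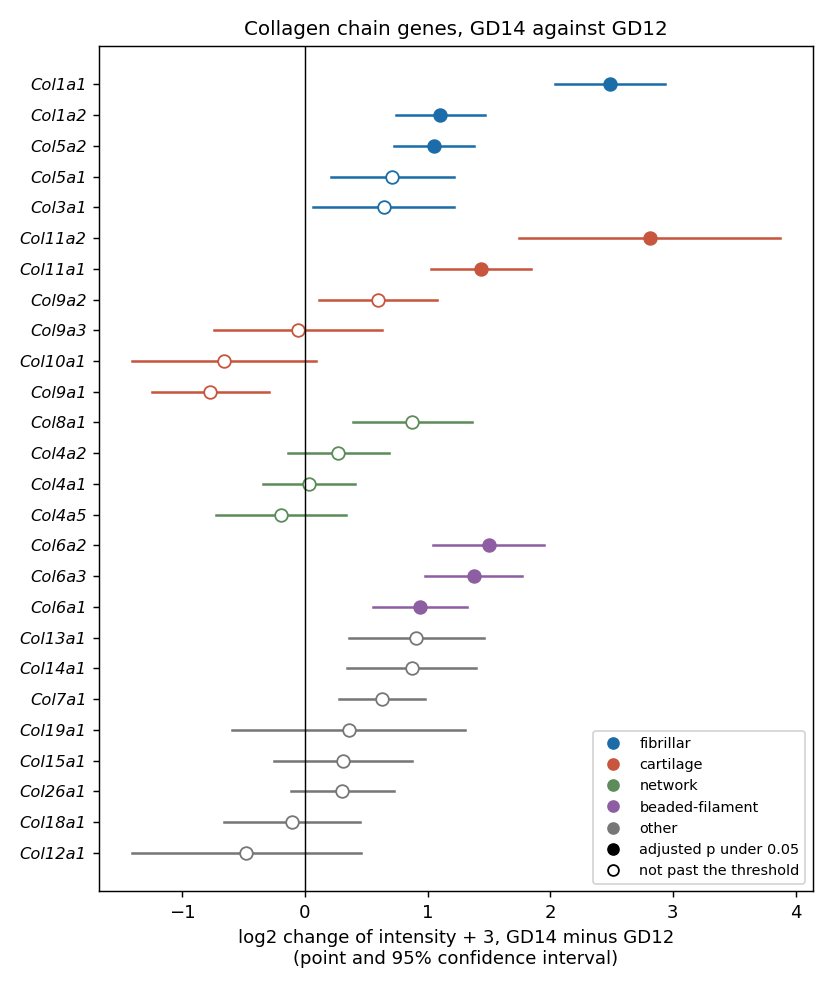
Log2 change of intensity + 3 from GD12 to GD14 for the 26 tested collagen genes, grouped by class, with 95% confidence intervals from the limma model (3 arrays a day). Filled points passed an adjusted p of 0.05: 3 of 5 fibrillar, 2 of 6 cartilage and 3 of 3 beaded-filament genes, and 0 of 4 network genes.

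Upstream sequence is shown for those genes that rose and had an entry with sequence outside annotated genes, because their transcripts moved in the same direction. Each line is a stretch of 150 bases from the RefSeq promoter table (GRCm38.p6), written 5′ to 3′ on the gene's own strand. Capitals mark CCAAT or GGGCGG on either strand, the core letters of the CCAAT box and of the GC box bound by the Sp family. The stretches are chr6:4505468-4505617 (plus strand) for Col1a2, chr3:114030329-114030478 (plus) for Col11a1, chr10:76726045-76726194 (minus) for Col6a1, chr10:76623631-76623780 (minus) for Col6a2 and chr1:90844002-90844151 (minus) for Col6a3.
Col1a2: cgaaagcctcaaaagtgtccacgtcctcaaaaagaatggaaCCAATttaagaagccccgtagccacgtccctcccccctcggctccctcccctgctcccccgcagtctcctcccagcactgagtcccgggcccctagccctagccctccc
Col11a1: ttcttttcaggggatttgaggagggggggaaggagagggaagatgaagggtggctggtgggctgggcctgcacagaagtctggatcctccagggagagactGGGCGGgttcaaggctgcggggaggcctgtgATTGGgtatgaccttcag
Col6a1: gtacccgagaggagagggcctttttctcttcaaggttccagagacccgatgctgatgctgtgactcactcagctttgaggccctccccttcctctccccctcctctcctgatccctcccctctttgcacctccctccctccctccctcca
Col6a2: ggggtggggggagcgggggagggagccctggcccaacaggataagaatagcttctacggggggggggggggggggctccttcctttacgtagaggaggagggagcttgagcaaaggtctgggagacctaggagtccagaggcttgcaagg
Col6a3: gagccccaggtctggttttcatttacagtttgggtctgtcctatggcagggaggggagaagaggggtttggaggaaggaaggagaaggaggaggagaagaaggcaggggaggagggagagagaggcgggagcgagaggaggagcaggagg
Col1a2 carries CCAAT, and Col11a1 carries both motifs, with CCAAT on the opposite strand. Neither motif is in the stretches of the type VI genes, which are only a part of the longer windows counted below. All 5 stretches lean to 1 base class: A or G makes up 76.7% of the letters for Col6a3, 68.0% for Col6a2 and 64.0% for Col11a1, and C or T makes up 70.7% for Col6a1 and 62.0% for Col1a2. These shares were not computed for other promoters, so the lean cannot be called particular to these genes.

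The table held windows of 300 bases (250 before the start to 50 after it) for 21 of the 30 genes, 24 windows in all. The genes without an entry were Col1a1, Col2a1, Col4a3, Col5a2, Col9a3, Col12a1, Col14a1, Col22a1 and Col26a1. Some genes had more than 1 window: the 7 windows of genes that rose came from 6 genes, and the 17 other windows from 15. CCAAT (or ATTGG) was in 8 of the 24 windows, including 2 of the 7 windows of genes that rose, and in 37.4% of all windows in the table. GGGCGG (or CCGCCC) was in 13 of 24, including 5 of those 7, and in 35.7% of all windows. TATAAA (or TTTATA) was in 4 of 24, including 1 of those 7, and in 13.6% of all. CCTCCC (or GGGAGG), a motif chosen after the sequences were seen, was in 7 of the 7 windows of genes that rose, 12 of the 17 windows of other collagen genes and 42.4% of all windows. These letter matches describe the windows only.

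Type I collagen is the main fibre of bone and skin, and both of its chains rose. Col1a1 read 1158.3, 1175.0 and 859.8 on the GD12 arrays, then 1656.9, 1563.3 and 2278.5 on GD13, and 6321.0, 5541.2 and 5904.2 on GD14. The 3 days did not overlap, and the gap between GD13 and GD14 was the wider one. From GD12 to GD14 the rise was 5.60-fold (log2 2.49, SE 0.20, adjusted p = 0.000324 with limma). A second, dimmer Col1a1 probe set rose by 1.42 on the log2 scale (limma adjusted p = 0.0165).

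Col1a2, the partner chain, read 2424.5, 2370.1 and 1925.8 on GD12, then 2511.3, 2312.4 and 2905.8 on GD13, and 5030.4, 4523.2 and 4848.3 on GD14. GD12 and GD13 overlapped, while every GD14 array lay above both. The rise from GD12 to GD14 was 2.15-fold (log2 1.10, SE 0.16, limma adjusted p = 0.00638). The second Col1a2 probe set did not show it: it read 373.1, 382.1 and 426.4 on GD12 and 345.8, 567.9 and 412.3 on GD14, a log2 difference of 0.14 (limma adjusted p = 0.791). The Col1a2 call therefore rests on the brighter of 2 probe sets that disagree.

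Type V collagen lies inside type I fibrils and limits their width. Its chain Col5a2 read 1160.9, 1087.9 and 1042.0 on GD12, then 1640.6, 1482.3 and 1822.6 on GD13, and 2242.8, 2158.7 and 2423.8 on GD14. The days formed 3 separate steps, and the rise over both days was 2.07-fold (log2 1.05, SE 0.14, limma adjusted p = 0.00482). Col5a1, the other type V chain, was above its GD12 values on all 3 GD14 arrays but did not pass (log2 0.71, SE 0.22, limma adjusted p = 0.128).

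Col3a1, the type III chain of elastic and healing tissue, was the brightest fibrillar probe set that did not pass. It read 1296.5, 1746.0 and 894.4 on GD12, then 1608.9, 1684.6 and 1470.3 on GD13, and 2327.1, 2070.7 and 1600.0 on GD14. The third array was lowest on each day, and the lowest GD14 value lay below the highest of GD12. The log2 difference was 0.64 (SE 0.25, limma adjusted p = 0.227). Its second probe set, with less spread between arrays, rose by 0.78 (limma adjusted p = 0.0473), and the third differed by 0.67 (limma adjusted p = 0.235). Col3a1 and Col5a2 are neighbours on chromosome 1.

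**Figure D2:**
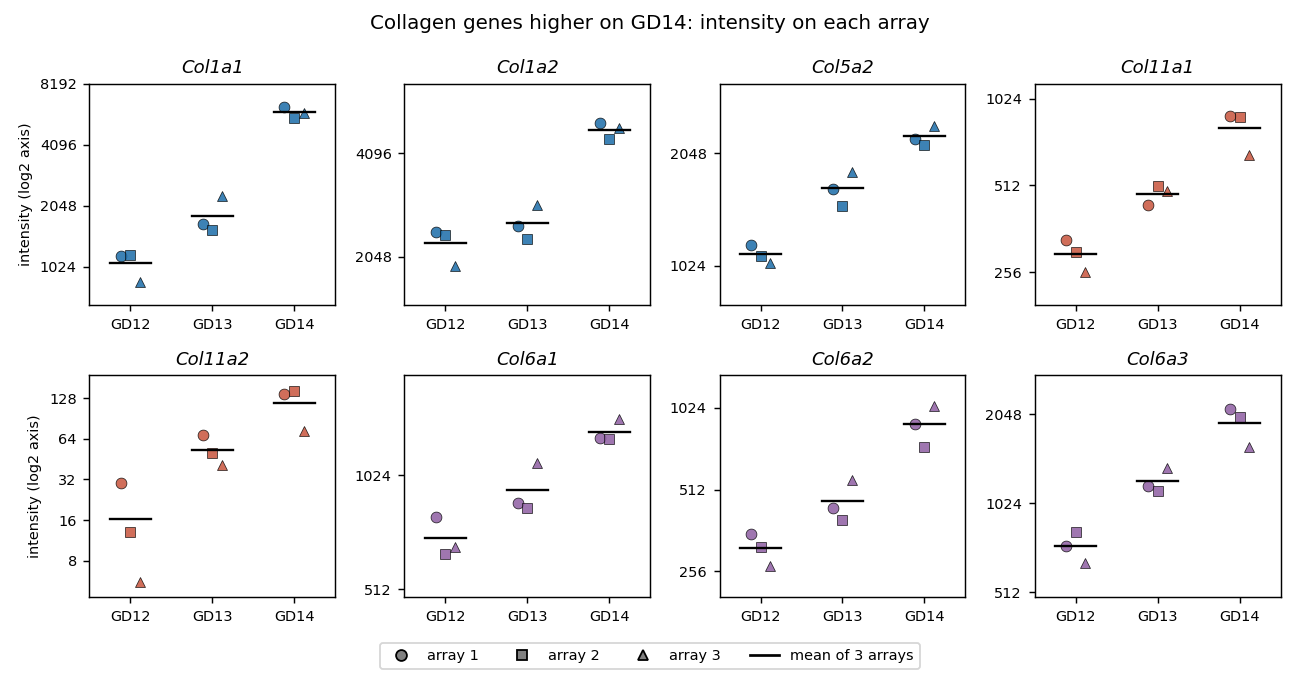
Intensity on each array (log2 axis, scaled separately for each gene) of the 8 collagen genes that rose between GD12 and GD14. Symbols mark the array number and lines the mean of 3 arrays; for all 8 genes every GD14 value lies above every GD12 value, and Col1a1 goes from 859.8 to 1175.0 on GD12 up to 5541.2 to 6321.0 on GD14.

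Among the cartilage types, only type XI chains passed. Col11a1, whose chain sets the width of thin fibrils in cartilage and also occurs outside it, read 331.9, 300.4 and 255.3 on GD12, then 436.5, 510.2 and 489.6 on GD13, and 889.2, 886.1 and 653.8 on GD14. The 3 days did not overlap, and the third array was lowest on GD12 and GD14. The rise was 2.71-fold (log2 1.44, SE 0.18, limma adjusted p = 0.00317).

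Col11a2, its partner, read 30.3, 13.0 and 5.6 on GD12, then 67.8, 50.6 and 40.9 on GD13, and 137.3, 144.7 and 73.2 on GD14. The days did not overlap, and the third array was the lowest on each. The fitted log2 change was 2.81 (SE 0.47, limma adjusted p = 0.0124). Since 1 GD12 array lay under the filter intensity, the size depends on the value added before the logarithm, and it was 3.005 with 1 added and 2.29 with 11 added. The call was lost without the first GD14 array (limma adjusted p = 0.0593) or the second (0.0518).

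Type IX collagen decorates type II fibrils and is made of 3 chains, none of which passed in the main fit. Col9a1 read 225.9, 249.9 and 239.0 on GD12, then 149.6, 207.1 and 174.9 on GD13, and 143.9, 175.3 and 104.7 on GD14. Every later array was below every GD12 array, but the log2 difference of -0.77 from GD12 to GD14 did not pass (SE 0.21, limma adjusted p = 0.0850). The fall passed with the filter set at the median (limma adjusted p = 0.0400) and with trended robust variances (limma adjusted p = 0.0387). Col9a2, the brightest cartilage probe set that did not pass, read 149.5, 192.7 and 157.2 on GD12, then 221.6, 261.3 and 229.7 on GD13, and 271.7, 313.0 and 187.8 on GD14. It lay higher on GD13 on all arrays, while on GD14 the third array fell back among the GD12 values (log2 0.60, SE 0.21, limma adjusted p = 0.178). Col9a3 ran from 108.8 to 254.6. All its GD13 values lay above GD12, while GD14 overlapped GD12, with a log2 difference of -0.06 between those days (SE 0.30).

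Col10a1, the marker chain of hypertrophic cartilage, stayed dim at 8.4 to 29.1. All 3 GD14 values (11.5, 14.6 and 8.4) were below those of GD12 (14.8, 29.1 and 17.2), with a log2 difference of -0.66 that did not pass (SE 0.33, limma adjusted p = 0.350). Of the 6 measured markers of cartilage cells, 1 rose between GD12 and GD14, Ihh, a signal of growth cartilage (log2 1.17, limma adjusted p = 0.00568). Acan, the main cartilage proteoglycan, averaged 11.1 on GD12 and 48.0 on GD14 without passing (limma adjusted p = 0.162). The summed intensity of the 6 was 311.1 to 414.1 on GD12, 437.6 to 565.4 on GD13 and 468.3 to 653.3 on GD14. Most of that sum was Pth1r, which averaged 293.5 on GD12 and 392.4 on GD14 without passing (limma adjusted p = 0.436). The part of these cartilage markers in the type XI result was not tested.

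All 3 chains of type VI collagen, which forms the pericellular filaments of mesenchyme, muscle and cartilage, rose. Col6a3, the long chain that completes the molecule, read 732.8, 822.0 and 641.8 on GD12, then 1172.0, 1130.2 and 1353.1 on GD13, and 2134.2, 2007.6 and 1588.4 on GD14. The 3 days were fully separate, and the rise was 2.60-fold (log2 1.38, SE 0.18, limma adjusted p = 0.00343).

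Col6a2 read 352.1, 315.8 and 267.7 on GD12, then 439.0, 397.1 and 557.4 on GD13, and 894.7, 738.4 and 1037.6 on GD14. These too were 3 separate steps, 2.83-fold in all (log2 1.50, SE 0.20, limma adjusted p = 0.00423). Col6a1, its neighbour on chromosome 10, read 794.6, 634.0 and 661.9 on GD12, then 861.8, 839.3 and 1098.3 on GD13, and 1278.9, 1275.0 and 1442.5 on GD14. Its days did not overlap either, and its rise was 1.91-fold (log2 0.94, SE 0.17, limma adjusted p = 0.0170). It was the least stable of the 8 calls, passing in 5 of the 9 fits that left out 1 array, and its limma adjusted p was 0.0619 and 0.0546 without the second or the third GD12 array, and 0.0615 and 0.0518 without the first or second GD14 array. A dimmer second Col6a1 probe set differed by 0.92 (limma adjusted p = 0.0621).

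None of the 4 tested network genes passed. Col4a1, a main basement membrane chain, read 768.1, 784.4 and 754.2 on GD12, then 557.4, 551.3 and 727.7 on GD13, and 737.6, 736.3 and 899.0 on GD14. GD14 straddled the GD12 values, and all 3 GD13 values lay below GD12, arrays 1 and 2 the farthest. The log2 difference from GD12 to GD14 was 0.03 with a 95% interval from -0.34 to 0.41, and its sign turned with median scaling. Col4a2, the other chain of the same molecule and its head-to-head neighbour on chromosome 8, read 596.1, 567.6 and 570.5 on GD12, then 427.6, 443.7 and 648.3 on GD13, and 732.6, 692.0 and 670.6 on GD14. Its GD14 values all lay above GD12, by 0.27 on the log2 scale (SE 0.18, limma adjusted p = 0.506).

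Col4a5, a chain of specialised basement membranes, ran from 32.0 to 62.3 with overlapping days (log2 -0.19, SE 0.23). Col8a1, a short network chain made around vessels and in the cornea, read 175.9, 164.4 and 145.9 on GD12, then 204.3, 209.2 and 262.2 on GD13, and 271.3, 243.1 and 403.8 on GD14. All later values exceeded those of GD12, and the log2 difference of 0.87 fell just short (SE 0.21, limma adjusted p = 0.0582). The 10 endothelial markers, which mark one of the cell layers with a type IV membrane, had 0 genes past the test between GD12 and GD14 and a median log2 difference of 0.19.

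**Figure D3:**
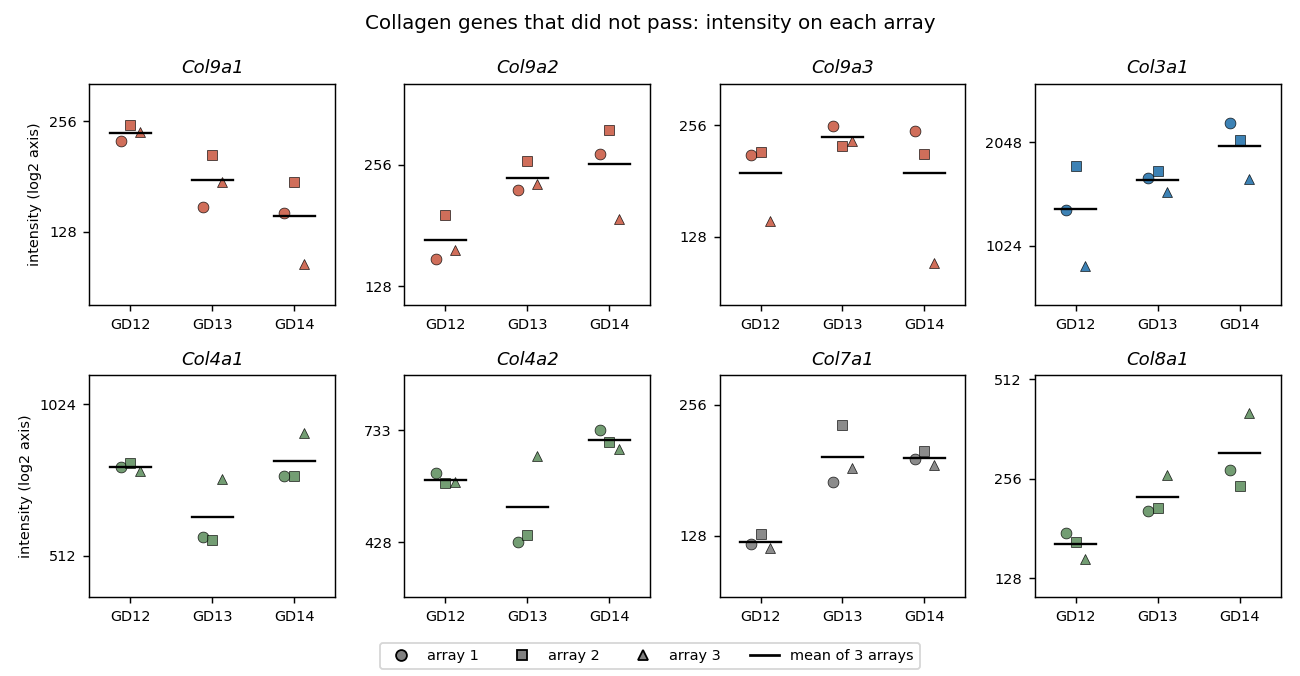
Intensity on each array (log2 axis, scaled separately for each gene) of 8 collagen genes that did not pass between GD12 and GD14. Symbols mark the array number and lines the mean of 3 arrays; Col9a1 is lower on GD14 (104.7 to 175.3) than on GD12 (225.9 to 249.9), Col7a1 is higher on GD13 and GD14, and Col4a1 on GD14 straddles its GD12 values.

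Of the 8 other tested collagens 0 passed in the main, unblocked fit. Col7a1, the anchoring fibril chain that ties epithelium to the tissue beneath, read 122.4, 129.1 and 120.3 on GD12, then 170.1, 230.1 and 183.3 on GD13, and 191.9, 200.2 and 186.5 on GD14. It was higher on every later array, with the whole difference between GD12 and GD13 (log2 0.63 from GD12 to GD14, SE 0.15, limma adjusted p = 0.0589). Col13a1, a collagen anchored in the cell membrane, read 53.2, 59.8 and 41.2 on GD12, then 72.5, 119.3 and 80.4 on GD13, and 89.9, 123.7 and 84.8 on GD14. It too was higher on every later array (log2 0.91, SE 0.24, limma adjusted p = 0.0756), and its dimmer second probe set rose by 1.29 (limma adjusted p = 0.0205). With the replicate number as a block both passed, Col7a1 with a limma adjusted p of 0.0383 and Col13a1 with 0.0179. Over all alternatives, with and without the block, Col7a1 passed in 4 of 22 and Col13a1 in 4 of 23.

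Col14a1, which binds the surface of type I fibrils, read 41.4, 33.9 and 54.1 on GD12, then 34.0, 49.9 and 54.8 on GD13, and 84.2, 88.6 and 68.5 on GD14. It was higher only on GD14 (log2 0.87, SE 0.23, limma adjusted p = 0.0757), and it passed in 2 of 22 alternatives. Col12a1, a related fibril-surface collagen, ran from 10.3 to 35.8 with overlapping days (log2 -0.48, SE 0.41). Col26a1, the brightest of these that did not pass, read 800.1, 1007.7 and 754.9 on GD12, then 985.1, 864.7 and 1142.2 on GD13, and 1066.8, 910.8 and 1179.9 on GD14. Its days overlapped (log2 0.30, SE 0.18, limma adjusted p = 0.451).

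The basement membrane collagens Col15a1 (74.7 to 164.2) and Col18a1 (200.9 to 367.8) also overlapped between days, with log2 differences of 0.31 (SE 0.25) and -0.10 (SE 0.24). Col18a1, the source of endostatin, had 5 probe sets. The third brightest read 115.8, 97.5 and 128.6 on GD12, then 23.8, 24.2 and 110.4 on GD13, and 106.2, 25.6 and 123.0 on GD14. It was low on the first and second GD13 arrays and the second GD14 array, a pattern the brightest probe set lacked. Col19a1, a minor collagen next to Col9a1 on chromosome 1, lay near the filter at 2.2 to 20.2 (log2 0.36, SE 0.42).

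All 8 genes that rose between GD12 and GD14 had fitted steps above 0 on both days. Between GD12 and GD13, 0 of the 26 collagen genes passed in limma, where 0.643% of all probe sets did (0.568% higher and 0.0751% lower). For 12 of them all GD13 values lay above GD12 and for 2 all below, against 10.1% and 8.39% of all probe sets. Between GD13 and GD14 1 gene passed, Col1a1 (log2 1.71, limma adjusted p = 0.0426), where 0.0429% of all probe sets did (0.0322% higher and 0.0107% lower). That call held in 7 of 23 alternatives, was lost with the replicate block (limma adjusted p = 0.0825) and without the third arrays, and ranged up to 0.333. For 12 genes all GD14 values lay above GD13 and for 0 all below, against 7.14% and 5.88%.

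Col1a1 and Col1a2 had the larger share of their rise on the second day, with log2 steps of 0.78 and 1.71 for Col1a1 and 0.20 and 0.90 for Col1a2. Col11a2 took 1.73 and then 1.08, and Col7a1 took 0.63 and then 0.00. The steps of Col5a2 were 0.58 and 0.47, of Col11a1 0.69 and 0.74, of Col6a1 0.42 and 0.52, of Col6a2 0.56 and 0.93, and of Col6a3 0.74 and 0.64. Col4a1 went down by 0.34 and back up by 0.37, and Col4a2 showed -0.22 and 0.49. In the limma test of unequal steps 0 collagen genes passed, and 0.0% of all probe sets did. At an unadjusted p under 0.05 the count was 4 of 26 (Col1a1, Col1a2, Col4a1 and Col7a1), beside 4.86% of all probe sets. The moderated F-test over the 3 days called the same 8 genes as GD14 against GD12, where 2.58% of all probe sets passed. It called 1 collagen gene without the third arrays, Col1a1, and also 1 without the first GD14 array.

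**Figure D4:**
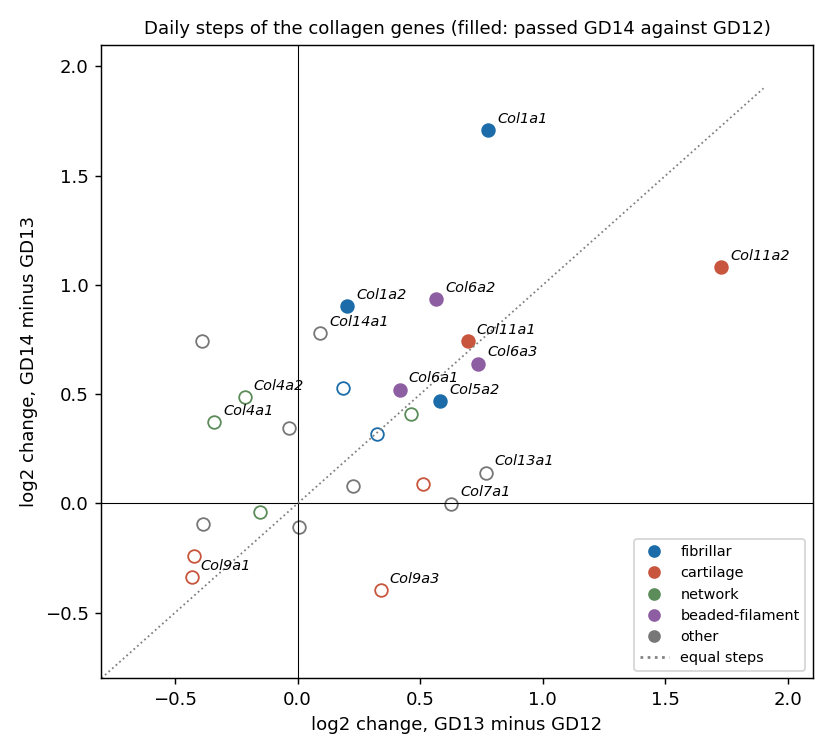
Log2 change from GD12 to GD13 (horizontal) and from GD13 to GD14 (vertical) for the 26 tested collagen genes, coloured by class; filled points passed GD14 against GD12. Col1a1 lies above the dotted line of equal steps (0.78 and 1.71), Col7a1 below it (0.63 and 0.00), and the test of unequal steps passed for 0 genes.

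Chains that share a molecule or fibril need not change by the same factor. For the 13 of 17 listed pairs of such partners or adjacent genes in which both passed the filter, the log2 ratio was taken within each array, which shows unequal change and not the amounts of the chains. An exact two-sided permutation test of the F statistic over the 3 days has 280 distinct groupings of the arrays and a smallest p of 0.00357, and p-values were adjusted over the 13 pairs. In 4 pairs the ratio changed (adjusted permutation p = 0.0232 each).

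Within type I, the Col1a1 to Col1a2 log2 ratio was -1.06, -1.01 and -1.16 on GD12, then -0.60, -0.56 and -0.35 on GD13, and 0.33, 0.29 and 0.28 on GD14. It went up in 2 clear steps with little spread, 2.60-fold in all, and it passed with any 1 array left out. Because the second Col1a2 probe set disagrees with the first, this ratio describes the brightest probe sets. The ratio of Col3a1 to Col1a1 fell by 1.84 on the log2 scale, with the drop mainly on GD14. It passed in 7 of the 9 fits that left out 1 array, and not without the third GD13 array (adjusted exact permutation p = 0.0774). This ratio too describes the brightest probe sets. The second brightest rose by less for Col1a1 (log2 1.42 from GD12 to GD14) and by slightly more for Col3a1 (0.78).

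Within type IX, the Col9a1 to Col9a2 log2 ratio was 0.59, 0.37 and 0.60 on GD12, then -0.56, -0.33 and -0.39 on GD13, and -0.90, -0.83 and -0.83 on GD14. The 2 chains moved apart on each day and the 3 days did not overlap, a 2.58-fold shift toward Col9a2. It passed with any 1 array left out, although neither gene passed alone between GD12 and GD14 in the main fit. The Col9a1 to Col9a3 ratio was lower by 0.71 and did not pass (adjusted exact permutation p = 0.139). The Col9a2 to Col9a3 ratio was higher by 0.65 and did not pass either (adjusted exact permutation p = 0.166).

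Within type VI, the Col6a1 to Col6a2 log2 ratio fell by 0.56, so Col6a2 increased 1.48-fold more than Col6a1. This passed in 4 of the 9 fits that left out 1 array, and the adjusted permutation p was 0.128 without the third GD12 array. The ratios of Col6a1 to Col6a3 (-0.44) and Col6a2 to Col6a3 (0.12) did not pass. The type XI ratio Col11a1 to Col11a2 differed by -1.37 without passing (adjusted exact permutation p = 0.139), the type V ratio by -0.34 and the Col4a1 to Col4a2 ratio by -0.24.

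The replicate block left 0 pairs past the threshold, with adjusted permutation p of at least 0.103. Only 36 groupings then exist, the smallest p is 0.0278, and 8 of the 13 pairs would have to reach it for any to pass.

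**Figure D5:**
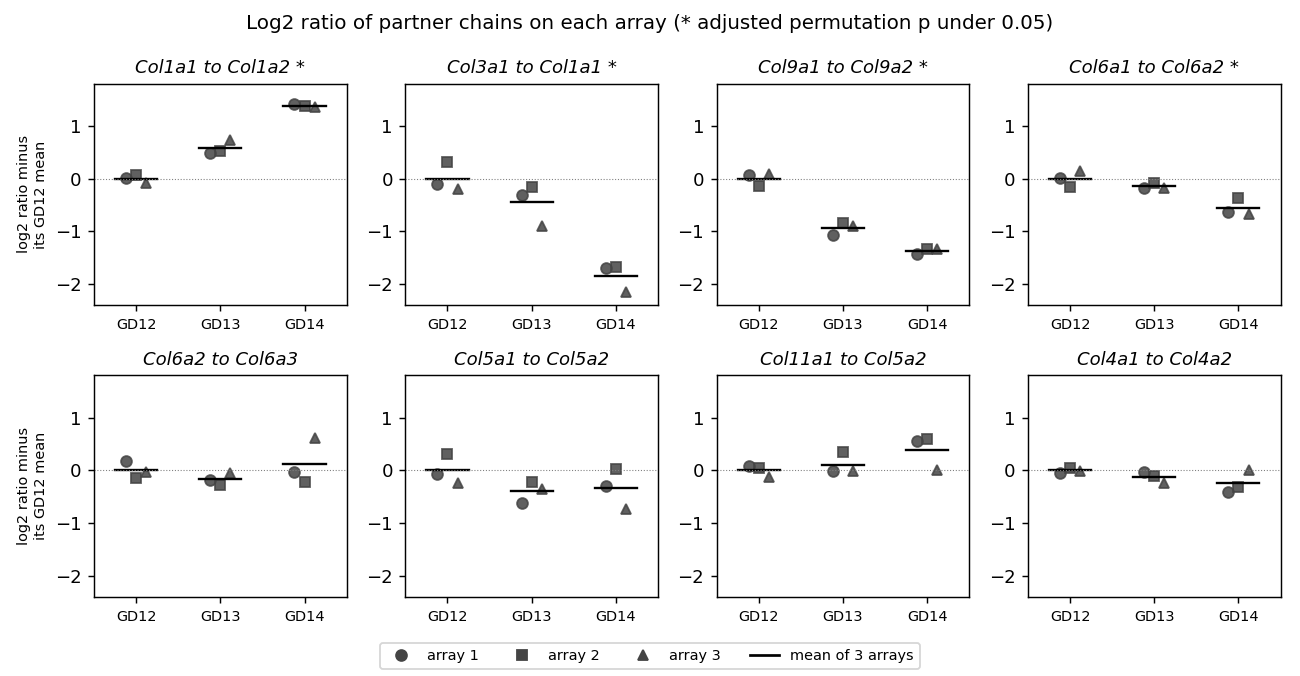
Log2 ratio of partner chains on each array minus its GD12 mean, for 8 of the 13 pairs; symbols mark the array number, lines the mean of 3 arrays, and an asterisk an adjusted permutation p under 0.05. The Col1a1 to Col1a2 ratio goes up by 1.38 from GD12 to GD14 and the Col9a1 to Col9a2 ratio goes down by 1.37, with the 3 days separate in both.

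Genes that process and surround collagen were described from lists written by function, and counts in them stand beside the 3.24% of all tested probe sets that rose between GD12 and GD14 and the 1.06% that fell. Of 11 measured maturation enzymes and chaperones, 4 rose between GD12 and GD14 and 0 fell, with a median log2 change of 0.62. Lox, which oxidises lysines for cross-links, went from 165.2 ± 27.2 to 666.7 ± 116 (SD, n = 3; log2 1.99, limma adjusted p = 0.00110). Crtap, part of the prolyl 3-hydroxylation complex, went from 612.0 ± 27.3 to 1334 ± 110.1 (SD, n = 3; log2 1.12, limma adjusted p = 0.00633), and P4ha1, a prolyl 4-hydroxylase subunit, rose by 0.96 (limma adjusted p = 0.0131). The other enzyme that passed was P4ha2 (log2 0.83, limma adjusted p = 0.0283). Without the third arrays 2 of these passed, Lox and Crtap. The collagen chaperone Serpinh1 differed by 0.44 without passing (limma adjusted p = 0.154).

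Of 13 measured partners that bind fibrils or share their matrix, 7 rose and 0 fell, with a median of 1.43. Dcn, a proteoglycan that coats fibrils, went from 246.7 ± 35.9 on GD12 to 1549 ± 104 on GD14 (SD, n = 3; log2 2.64, limma adjusted p = 7.53e-05). Ogn, of the same family, rose by 1.88 (limma adjusted p = 0.000232). Fmod, which binds type I collagen, averaged 6.6 on GD12, under the filter intensity, and 84.8 on GD14 (limma adjusted p = 0.000294). Of 8 tested genes of collagen breakdown and its inhibitors, 3 rose (Ctsk, Mmp13 and Mmp9) and 0 fell. Ctsk, the osteoclast collagenase, averaged 135.2 on GD12 and 430.0 on GD14 (log2 1.65, limma adjusted p = 0.000471). Mmp13 averaged 6.0 on GD12 and 103.2 on GD14 (limma adjusted p = 0.00423), and Mmp9 20.1 and 156.0 (limma adjusted p = 0.00264). The GD12 mean of Mmp13 lay under the filter intensity, so Mmp13 passed the filter through the later days. None of 5 tested collagen receptors and none of 4 tested transcription factors of collagen genes passed, with medians of -0.03 and -0.48. With the replicate block Sox6 fell, and without the third arrays Scx did. These lists held 9 receptors and 9 transcription factors. Sox9, Runx2, Runx3 and Sp7 had no single-symbol probe set, and Sox5 did not pass the filter, so changes in these regulators were not tested.

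Markers of other cells moved over the same days, again beside the 3.24% of all tested probe sets that rose and the 1.06% that fell. Of the 4 measured bone markers 3 rose (Ibsp, Alpl and Dmp1). The summed intensity of the 4 was 147.8 to 207.8 on GD12, 1237 to 1652 on GD13 and 2150 to 3450 on GD14. Ibsp made up most of the sum on GD13 and GD14, with means of 1179 and 2268. Dmp1, an osteocyte gene, lay near the floor on GD12 with a mean of 3.4. Of 10 skeletal muscle markers 5 rose and 0 fell, with sums of 1144 to 1363, 1467 to 1776 and 2344 to 3509 on the 3 days. Of 8 tested macrophage markers 5 rose and 0 fell, with sums of 408.9 to 455.6, 470.4 to 549.5 and 781.1 to 976.6, and 1 rose without the third arrays. Lyz2, among the 5, averaged 6.9 on GD12, under the filter intensity, and passed the filter through the later days. Of 8 tested epithelial markers 4 rose and 0 fell, with sums of 994.2 to 1206, 1332 to 1448 and 1784 to 1939, and 2 rose without the third arrays. The epithelial keratins Krt5, Krt14 and Krt15 did not pass the filter. Of 8 tested neuron markers 0 rose and 1 fell, Mapt (2 fell with the block), with sums of 1782 to 3266, 1395 to 1995 and 1378 to 1813. Of 6 tested red cell markers 0 rose and 3 fell, the embryonic globins Hba-x, Hbb-y and Hbb-bh1 (with the block Alas2 also rose). Among 9 facial mesenchyme markers 0 rose and 1 fell, Msx1, and 2 fell with the replicate block. The part of these cell types in the collagen results was not tested.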

How the data were processed

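Total RNA of mouse embryonic orofacial tissue was measured on 9 one-colour arrays, 3 each for GD12, GD13 and GD14, grouped by title. The deposited table holds the authors' intensity of each of 12488 probe sets on each array, on a linear scale. It had been scaled between arrays, with a trimmed mean of 150.1 on each, and this scaling was kept. The image software and the scaling method were not given in the sources used here. Arrays carry no read depth; their number limits the precision.

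After adding 3 (near the 10th percentile of all values), log2 values of probe sets above the 25th percentile of mean log2 were fitted with limma 3.58.1 (R 4.3.3) as 3 day means, with 6 residual and 2.85 prior degrees of freedom. The 66 control probe sets were left out. P-values were adjusted over all 9326 tested probe sets. Ratios of partner chains, for which permutation tests were used, were computed with Python 3.11.15 and numpy 2.4.6. Both tests were checked on simulated data with independent errors between arrays. That check does not cover the shared deviation of arrays with the same number, described below. The members and all gene lists were chosen with earlier results of these data known. Each pathway gene stood for its brightest probe set. Genes were named by a rule: every collagen gene, values on each array for those that passed and for the brightest of each class that did not, and up to 3 genes of each pathway list by adjusted p; Serpinh1, P4ha2, Acan and the further collagen genes with array values were added after their values were seen.

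Arrays with the same replicate number deviated together (residual correlations between 0.19 and 0.42, against -0.29 to -0.02 for other pairs of different days), so the number was also fitted as a block. Other settings tried were scaling to the array median or by quantiles, adding 1 or 11 before the logarithm, leaving out the filter or setting it at the median, trended robust variances, array weights, the actin ratio as a covariate, leaving out the third arrays, only the days compared, other probe sets of a gene, and each array left out. Gene neighbours and promoters come from RefSeq tables of GRCm38.p6, used for names and sequence; the array's own build was not given in the sources used here.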

Additional observations from a re-analysis of the deposited data

How the results depend on the processing

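Between GD12 and GD14, 6 to 8 collagen genes passed with 1 array left out, and 7 to 12 under the other alternatives. Genes added in 1 or more alternatives were Col5a1, Col7a1, Col8a1, Col13a1 and Col14a1, which rose, and Col9a1, which fell. Both counts of 12, with a filter at the median and with trended robust variances, include the fall of Col9a1. Between GD12 and GD13 the count was 3 with trended robust variances (Col1a1, Col5a2 and Col6a3) and 1 with array weights. The count of 1 between GD13 and GD14 became 0 with quantile normalization, an added value of 1, no filter, the replicate block, the actin covariate, leaving out the third arrays, only the days compared, and the mean or dimmest probe set, and 2 with a filter at the median or robust variances; it was 0 to 1 with 1 array left out. The F-test gave 1 without the third arrays and 1 to 7 with 1 array left out. The pair count was 0 with the replicate block, 2 with the mean of a gene's probe sets, and 2 to 4 with 1 array left out. It was not run without the third arrays, where the smallest permutation p could not pass.

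Small differences from GD12 to GD14 turned sign. Col9a3 was 0.050 with array weights, 0.10 without the third arrays, 0.14 with the mean of probe sets and -0.28 to 0.30 with 1 array left out. Col4a1 was -0.0053 with median scaling, -0.012 with array weights, -0.075 without the third arrays and -0.061 to 0.083 with 1 left out. Col4a5 was 0.16 without the third arrays and -0.31 to 0.0026 with 1 left out, Col12a1 0.10 with its dimmest probe set, Col18a1 -0.33 to 0.11, and the Col6a2 to Col6a3 ratio -0.12 to 0.29 with 1 left out. The cause was not tested. Among collagen genes the replicate block changed no call other than those of Col7a1, Col13a1, Col1a1 between GD13 and GD14, and the pairs; with it the F-test also called Col13a1. Among listed genes, recounted for GD14 against GD12 after the data were seen, it added Sox6, Alx4, Epcam, Stmn2 and Alas2 and lost Dsp. Over all probe sets it called 620 (6.65%) against 401; array weights called 615, only the days compared 227, and fits with 1 array left out 178 to 394.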
